A study of Mus musculus with 13 samples.

Results

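The genes described here handle zinc and related metals in mouse sciatic nerve. They are 10 of the 40787 genes in the count table. They were chosen by the measured levels of 1 of them, Slc39a8, which was higher in the uninjured nerves of the knockout, whereas the other 9 were added as transporters of the same families, as metallothioneins, or as the zinc-sensing regulator of metallothioneins. The contralateral genotype difference of Slc39a8 therefore chose the members and is given as a description only.

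RNA of 13 sciatic nerves from C57BL/6 mice was sequenced, with all nerves collected at 5 days post crush (dpc). Controls carried floxed alleles of Rptor without Cre and gave 3 contralateral and 3 injured nerves. RaptorKO mice carried the same alleles, recombined after tamoxifen in Schwann cells (SCs), and gave 4 contralateral and 3 injured nerves. Both genotypes received tamoxifen at 2 months of age, and 1 nerve of each animal was crushed 2 months later. RNA came from whole nerves without the epineurium, taken distal to the crush in injured nerves, so SC transcripts are mixed with those of all other nerve cells. Since the contralateral nerve is the uninjured side of an operated animal, no nerve of an unoperated mouse was compared.

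The library totals ranged from 8200458 to 13581775 counts, and levels are given as counts per 1000000 (CPM) after TMM scaling, which corrects totals for a few dominant genes. Rptor, which encodes the mTORC1 subunit Raptor, was at 43.6 to 52.2 CPM in control contralateral and 22.1 to 27.8 CPM in RaptorKO contralateral nerves. Among injured nerves it was at 34.98 to 49.5 CPM in controls and 23.3 to 28.8 CPM in RaptorKOs. The control libraries numbered 3 stood apart: Xist had 14462 and 15017 counts there and Y-linked genes 10 to 20, against 4 to 17 and 1456 to 2338 in the other 11. High Xist with few Y-linked counts is the pattern of females. The study used mice of either sex, and the labels give no sex. No RaptorKO library had this pattern, so it was not balanced between the genotypes. Both control libraries numbered 3 were kept, and values without them are given where they change a result. Libraries of equal number may come from both sides of 1 mouse, which the labels do not state. Libraries were treated as independent, and p-values measure the spread between them.

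Zinc enters the cytosol through the ZIP transporters, encoded by Slc39 genes, and leaves it into organelles or out of the cell through the ZnT transporters, encoded by Slc30 genes. Metallothioneins are small proteins that bind zinc and copper through cysteines and buffer free zinc. The transcription factor MTF-1 senses free zinc and binds short metal response elements in the promoters of Mt1, Mt2, and Slc30a1. Metallothionein genes also respond to glucocorticoids, and Mt3 is the form best known from brain.

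The coding sequences of the metallothioneins are shown because they carry the cysteines that bind metal and because the closely related Mt1 and Mt2 must be told apart in the counts. All lie on the plus strand of chromosome 8 of GRCm38, Mt3 from 94152607 to 94154146, Mt2 from 94172664 to 94173568, and Mt1 from 94179082 to 94180327. The letters are the coding exons joined in GENCODE M21 transcripts, and capitals mark each in-frame cysteine codon.
Mt1: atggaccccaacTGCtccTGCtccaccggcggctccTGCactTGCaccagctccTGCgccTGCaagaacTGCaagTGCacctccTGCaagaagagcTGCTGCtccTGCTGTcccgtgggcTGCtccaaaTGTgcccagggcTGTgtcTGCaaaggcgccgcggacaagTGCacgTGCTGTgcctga
Mt2: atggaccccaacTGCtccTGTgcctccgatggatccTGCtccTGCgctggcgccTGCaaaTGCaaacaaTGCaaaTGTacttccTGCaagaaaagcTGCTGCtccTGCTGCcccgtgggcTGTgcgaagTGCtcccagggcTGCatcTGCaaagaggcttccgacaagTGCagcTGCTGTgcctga
Mt3: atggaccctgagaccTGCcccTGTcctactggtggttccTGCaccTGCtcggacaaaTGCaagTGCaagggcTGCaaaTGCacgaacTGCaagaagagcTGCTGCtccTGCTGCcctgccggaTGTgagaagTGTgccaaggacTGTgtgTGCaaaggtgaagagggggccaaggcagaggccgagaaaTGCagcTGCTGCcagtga
Each of these reading frames held 20 cysteine codons, among 61 codons in Mt1 and in Mt2 and 68 in Mt3. Over the 186 coding bases Mt1 and Mt2 were identical at 148, or 79.6%, and the longest run shared by their transcripts was 20 bases. RSEM, which estimated the counts, splits reads that match several genes, and Mt2 held only whole counts in all 13 libraries while Mt1 held counts that were not whole in 4.

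The promoters of Mt1 and Mt2 are shown because both genes fell steeply after crush and are textbook targets of MTF-1. The core of the metal response element was searched as TGCACNC and TGCGCNC on both strands in the 250 bases before each RefSeq start (GRCm38.p6), and capitals mark the matches.
Mt1, chr8:94178839-94179088, plus strand: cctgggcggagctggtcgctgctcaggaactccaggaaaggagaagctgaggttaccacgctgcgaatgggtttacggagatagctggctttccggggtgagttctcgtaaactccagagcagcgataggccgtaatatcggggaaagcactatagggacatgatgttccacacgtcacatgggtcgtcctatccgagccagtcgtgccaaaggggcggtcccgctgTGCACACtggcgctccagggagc
Mt2, chr8:94172368-94172617, plus strand: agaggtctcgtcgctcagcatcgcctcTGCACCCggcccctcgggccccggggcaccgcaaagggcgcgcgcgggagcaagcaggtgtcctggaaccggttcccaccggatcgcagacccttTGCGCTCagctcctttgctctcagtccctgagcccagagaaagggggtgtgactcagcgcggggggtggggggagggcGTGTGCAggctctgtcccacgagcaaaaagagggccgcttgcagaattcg
Mt2 held 3 matches and Mt1 held 1, with 2 more for Mt1 and 1 more for Mt2 in the 50 bases after the start. The first coding bases of Mt1 and Mt2 are at 94179311 and 94172848, and the sequence between those 50 bases and the coding start was not searched. The counts of matches therefore depend on the annotated starts and do not rank the 2 promoters. Of the 32851 windows of all genes, 21.4% held at least 1 match, 5.17% at least 2, and 1.26% at least 3. Promoter windows were found for 8 of the 10 members. Slc30a1 held 1 match, Slc30a10 held 3, of which a pair overlapped on opposite strands, Slc39a8 held 1 in 1 of its annotated promoters, and the windows of Mt3, Slc39a10, and Mtf1 held 0. In the 50 bases after the start, Mt3 and Slc30a1 each held 1. A match in these letters is a description and not evidence of binding.

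Of the 10 members 9 held at least 50 counts in all 13 libraries, and Slc30a10 was the exception. Relative to gene length (CPM per kilobase of annotated exon), the control contralateral nerves held most Mt2, at 1172 ± 248 (SD, n = 3), then Mt1 at 487 ± 56.2 and Mt3 at 166 ± 17.6. Slc39a10 followed at 16.9 ± 0.87, ahead of Slc30a1 at 7.74 ± 0.45 and Slc39a6 at 7.52 ± 0.92, which did not differ beyond their spread. Mtf1 at 3.85 ± 0.12, Slc39a14 at 2.13 ± 0.17, and Slc39a8 at 1.21 ± 0.13 were the lowest of the 9. The annotated exons of Mt1 form a single block without a gap for introns, which lowers its value per kilobase.

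**Figure D1:**
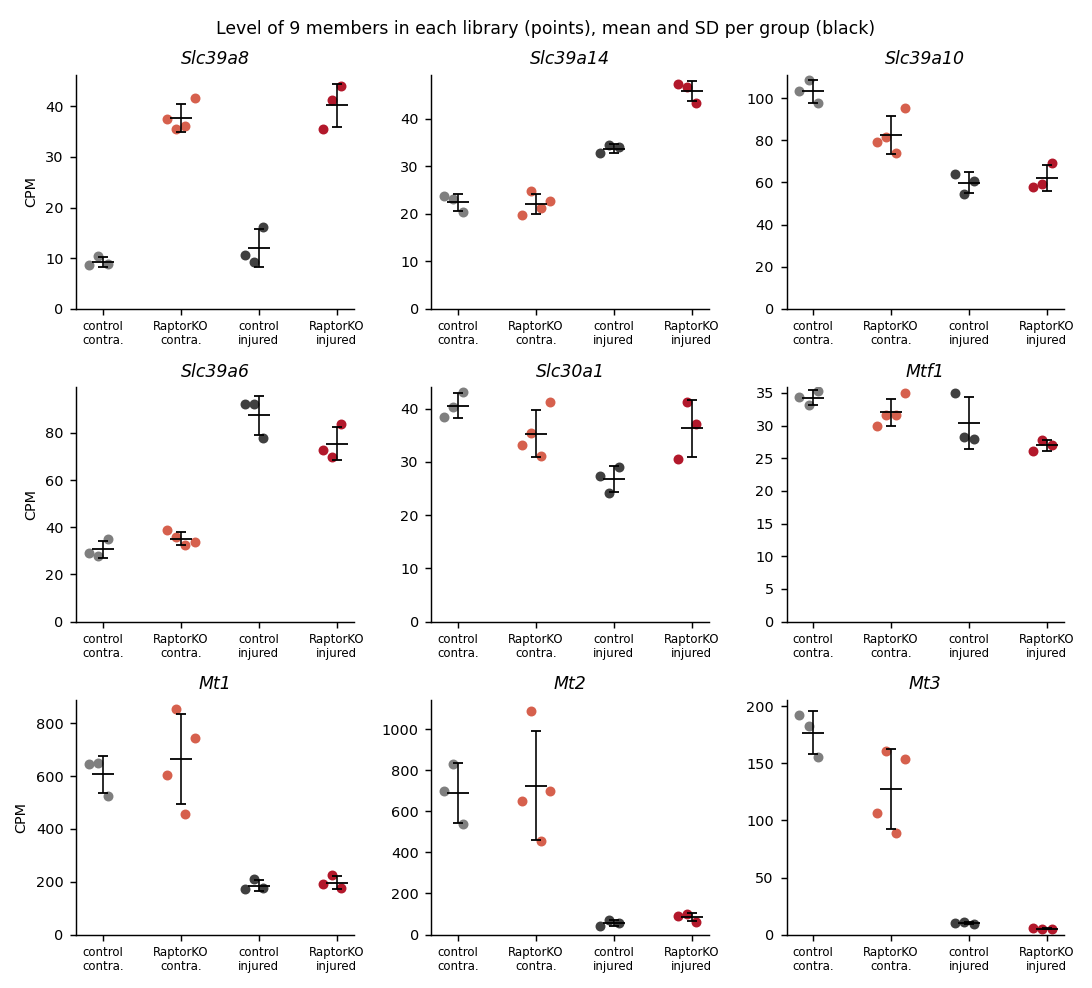
Level in CPM (vertical axes, from 0) of 9 members in each of the 13 libraries (points) by group, with the group mean and SD in black. Slc39a8 separates the genotypes on both sides (at most 16.2 CPM in any control and at least 35.4 CPM in any RaptorKO library), whereas Mt1, Mt2, and Mt3 separate injured from contralateral nerves.

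Among the importers, Slc39a8 (ENSMUSG00000053897, chromosome 3 from 135825279 to 135888572, plus strand) encodes ZIP8, a plasma membrane and lysosomal importer of zinc, manganese, and iron. In control contralateral nerves its levels were 8.60, 10.4, and 8.77 CPM. In RaptorKO contralateral nerves they were 37.4, 35.4, 36.2, and 41.5 CPM. The groups did not overlap and differed by 2.04 ± 0.13 (SE) on the log2 scale, or 4.13-fold, the difference by which the members were chosen.

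The injured nerves, which may come from the same mice as the contralateral ones, were not used for that choice. There Slc39a8 was at 10.5, 9.16, and 16.2 CPM in controls and at 35.6, 41.1, and 43.9 CPM in RaptorKOs. The RaptorKO libraries lay above all control libraries, and the level was 3.40-fold higher in RaptorKOs (log2 fold change 1.76 ± 0.21, edgeR's quasi-likelihood test, Benjamini-Hochberg adjusted p = 0.00092). The call held under all 14 alternatives, with log2 fold changes from 1.60 to 2.05 and adjusted p from 7.6e-15 to 0.0052. The highest control library was the third, and without it the difference was 2.05.

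Within a genotype, the levels of Slc39a8 in injured and contralateral nerves overlapped. In the order of group means, control contralateral nerves (9.25 ± 0.98 CPM, SD, n = 3) and control injured nerves (11.97 ± 3.74 CPM, n = 3) overlapped, as did RaptorKO contralateral (37.6 ± 2.7 CPM, n = 4) and RaptorKO injured nerves (40.2 ± 4.2 CPM, n = 3). The injured minus contralateral difference was 0.33 ± 0.25 on the log2 scale in controls and 0.07 ± 0.12 in RaptorKOs, with no test made because the contralateral libraries chose the gene. In controls it was 0.05 without the third injured library, and 0.0013 without both control libraries numbered 3. The genotype difference was smaller by 0.28 ± 0.25 on the log2 scale in injured than in contralateral nerves, a value that was 0.01 in the other direction without the third control injured library.

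Slc39a14 (chromosome 14 from 70303469 to 70351425, minus strand) encodes ZIP14, which imports zinc, iron not bound to transferrin, and manganese and is known to be induced by interleukin-6. It was at 23.8, 23.1, and 20.5 CPM in control contralateral and at 19.6, 24.7, 21.3, and 22.6 CPM in RaptorKO contralateral nerves, which overlapped. After crush it was at 32.7, 34.4, and 34.0 CPM in controls and at 47.2, 46.7, and 43.4 CPM in RaptorKOs. Every injured library exceeded every contralateral one, and every RaptorKO injured library exceeded every control injured one.

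Slc39a14 rose after crush by 0.54 ± 0.13 (SE) on the log2 scale in controls (edgeR's quasi-likelihood test, adjusted p = 0.0027) and by 1.03 ± 0.12 in RaptorKOs (adjusted p = 3.1e-05). Between injured nerves it was 1.38-fold higher in RaptorKOs (log2 fold change 0.46 ± 0.12, adjusted p = 0.033). That call was lost in 7 of 14 alternatives, with adjusted p from 0.014 to 0.13 and log2 fold changes from 0.43 to 0.50. It did not hold without any single control injured library (adjusted p = 0.11, 0.11, and 0.076 for numbers 1 to 3) or without RaptorKO injured library 1 (adjusted p = 0.13) or 2 (adjusted p = 0.066). The test of the difference between genotype effects in injured and contralateral nerves gave 0.47 ± 0.15 with an adjusted p of 0.15.

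Slc39a10 and Slc39a6 encode ZIP10 and ZIP6, related plasma membrane importers that can form a complex, and they moved in opposite directions after crush. Slc39a10 (chromosome 1 from 46807544 to 46892852, minus strand) was at 103, 108, and 97.8 CPM in control contralateral and at 79.2, 81.6, 73.8, and 95.3 CPM in RaptorKO contralateral nerves. Control injured nerves held 64.2, 54.6, and 60.8 CPM and RaptorKO injured nerves 58.0, 59.4, and 69.3 CPM, all below the contralateral libraries of their genotype. It fell by 0.83 ± 0.09 on the log2 scale in controls (edgeR's quasi-likelihood test, adjusted p = 9.4e-06) and by 0.43 ± 0.12 in RaptorKOs (adjusted p = 0.0090, and 0.052 when libraries were scaled by their totals only). Injured nerves of the genotypes overlapped and differed by 0.08 ± 0.12 (adjusted p = 0.79).

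Slc39a6 (chromosome 18 from 24579881 to 24603817, minus strand) was at 29.2, 27.8, and 34.9 CPM in control contralateral and at 38.9, 35.7, 32.4, and 33.8 CPM in RaptorKO contralateral nerves. Control injured nerves held 92.2, 92.4, and 77.8 CPM and RaptorKO injured nerves 72.9, 69.9, and 83.6 CPM, all above every contralateral library. It rose by 1.47 ± 0.11 on the log2 scale in controls (edgeR's quasi-likelihood test, adjusted p = 2.9e-07) and by 1.08 ± 0.11 in RaptorKOs (adjusted p = 1.2e-05). The genotypes overlapped after crush, with a difference of -0.19 ± 0.11 (adjusted p = 0.37).

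The exporter Slc30a1 (chromosome 1 from 191906767 to 191913247, plus strand) encodes ZnT1, which moves zinc out across the plasma membrane. It was at 38.4, 40.3, and 43.1 CPM in control contralateral, at 33.3, 35.5, 31.2, and 41.3 CPM in RaptorKO contralateral, at 27.3, 24.1, and 29.0 CPM in control injured, and at 30.5, 41.2, and 37.2 CPM in RaptorKO injured nerves. The control groups did not overlap, nor did the injured groups, while the RaptorKO groups overlapped. Slc30a1 fell after crush in controls by 0.64 ± 0.13 on the log2 scale (edgeR's quasi-likelihood test, adjusted p = 0.00083). In RaptorKOs the difference was 0.02 ± 0.15 (adjusted p = 0.93), and its sign turned in 6 of 15 alternatives. The difference between these effects, 0.64 ± 0.19, had an adjusted p of 0.099, and that between injured nerves, 0.46 ± 0.15, an adjusted p of 0.10, so neither was called. Exons of Slc30a1 overlap those of the antisense gene 1700034H15Rik over 468 bases, and that gene held 0 to 14 counts per library.

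Slc30a10, whose protein exports manganese, was not tested. It held 0 counts in all 6 control libraries, which allows up to 0.243 to 0.293 CPM (3 counts in each library, counting error only). RaptorKO contralateral libraries held 2, 0, 3, and 7 counts and RaptorKO injured libraries 1, 0, and 0. Its exons overlap those of the opposite-strand gene Gm2061 over 533 bases, which held 0 to 3 counts.

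The metallothioneins had the largest differences between injured and contralateral nerves among the tested members, and all fell. Mt1 (ENSMUSG00000031765) was at 646, 650, and 527 CPM in control contralateral and at 605, 853, 458, and 743 CPM in RaptorKO contralateral nerves. It was at 172, 210, and 175 CPM in control injured and at 190, 224, and 175 CPM in RaptorKO injured nerves. Injured and contralateral libraries did not overlap, while the genotypes overlapped on both sides. Mt1 was 3.38-fold lower after crush in controls (log2 fold change -1.76 ± 0.13, edgeR's quasi-likelihood test, adjusted p = 1.4e-07) and 3.45-fold lower in RaptorKOs (-1.79 ± 0.20, adjusted p = 2.1e-05). The genotype difference among injured nerves was 0.10 ± 0.13 (adjusted p = 0.73).

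Mt2 (ENSMUSG00000031762) was at 700, 829, and 538 CPM in control contralateral nerves and at 652, 1088, 454, and 701 CPM in RaptorKO contralateral nerves. It was at 42.9, 70.6, and 56.5 CPM in control injured and at 92.5, 102, and 63.1 CPM in RaptorKO injured nerves. The fall was 12.6-fold in controls (log2 fold change -3.65 ± 0.21, edgeR's quasi-likelihood test, adjusted p = 1.8e-08) and 8.56-fold in RaptorKOs (-3.10 ± 0.29, adjusted p = 5.8e-06). Within the injured nerves 1 RaptorKO library, the third, lay inside the range of the controls. The genotype difference there was 0.62 ± 0.20 on the log2 scale and was not called (adjusted p = 0.087). It was called in 4 of 14 alternatives, among them DESeq2 (adjusted p = 0.023) and the fit without RaptorKO injured library 3 (log2 fold change 0.80, adjusted p = 0.021), with adjusted p from 0.00043 to 0.25 over all 14. Exons of Mt2 overlap those of the antisense gene Gm45774 over 432 bases, which held 0 to 11 counts.

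Mt3 (ENSMUSG00000031760) fell furthest. It was at 192, 183, and 156 CPM in control contralateral and at 106, 161, 88.9, and 154 CPM in RaptorKO contralateral nerves. After crush it was at 10.2, 11.3, and 9.48 CPM in controls and at 5.56, 4.82, and 5.15 CPM in RaptorKOs. Mt3 was 17.7-fold lower in injured than in contralateral control nerves (log2 fold change -4.15 ± 0.12, edgeR's quasi-likelihood test, adjusted p = 1.2e-10) and 25.1-fold lower in RaptorKO nerves (-4.65 ± 0.24, adjusted p = 9.9e-08).

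All RaptorKO injured libraries held less Mt3 than any control injured library, from 56 to 62 counts against 97 to 121. The difference of 1.97-fold (log2 fold change -0.97 ± 0.23, edgeR's quasi-likelihood test, adjusted p = 0.024) was called, and the direction was opposite to that of the Mt2 difference. Over 14 alternatives its log2 fold change stayed between -1.03 and -0.91, and the call was lost in 6, with adjusted p from 0.0022 to 0.11. It was lost without control injured library 1 (adjusted p = 0.059) or 2 (adjusted p = 0.11) and without RaptorKO injured library 1 (adjusted p = 0.066) or 2 (adjusted p = 0.051). The difference between the genotype effects in injured and contralateral nerves was -0.52 ± 0.28 (adjusted p = 0.46).

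**Figure D2:**
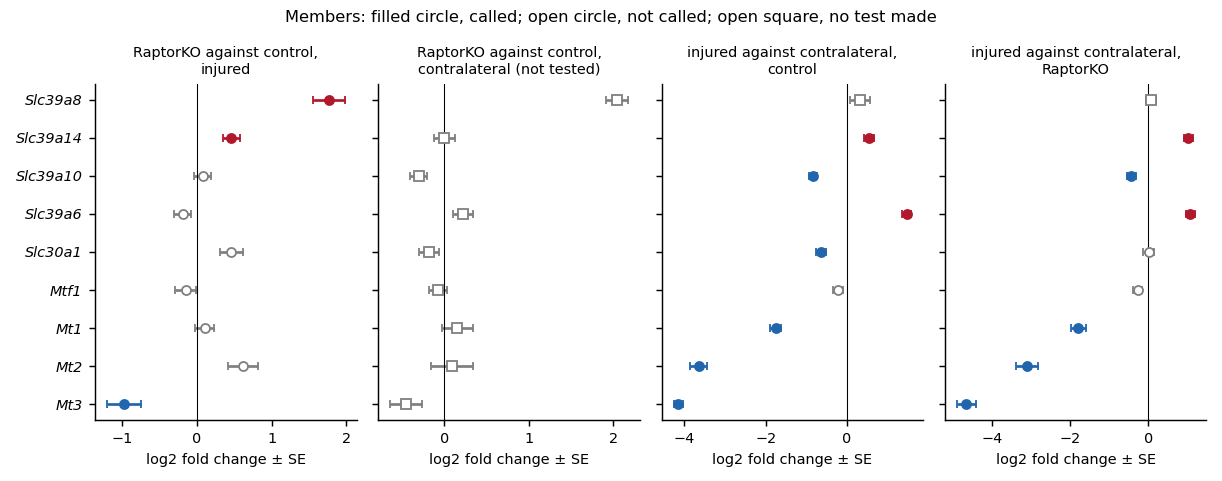
Log2 fold change with its SE (horizontal axes, scaled separately in each panel) of 9 members in 4 comparisons. Filled circles were called higher (red) or lower (blue), open circles were not called, and open squares had no test. Slc39a8 stands at 1.76 and 2.04 in the genotype comparisons and near 0 in the injury comparisons, and the metallothioneins reach -4.65 after crush.

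The ratios of the 3 metallothioneins within each library need no scaling between libraries. They were chosen after the values were seen and are given as a description, with no test. The counts of Mt2 were 1.02 to 1.28 times those of Mt1 in control contralateral, 0.94 to 1.28 in RaptorKO contralateral, 0.25 to 0.34 in control injured, and 0.36 to 0.49 in RaptorKO injured libraries. On the log2 scale the mean ratio of injured minus that of contralateral libraries was -1.90 in controls and -1.30 in RaptorKOs. The counts of Mt3 were 0.28 to 0.30 times those of Mt1 in control contralateral, 0.18 to 0.21 in RaptorKO contralateral, 0.054 to 0.059 in control injured, and 0.022 to 0.029 in RaptorKO injured libraries, so that no group overlapped another. The same difference for Mt3 was -2.39 in controls and -2.85 in RaptorKOs.

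**Figure D3:**
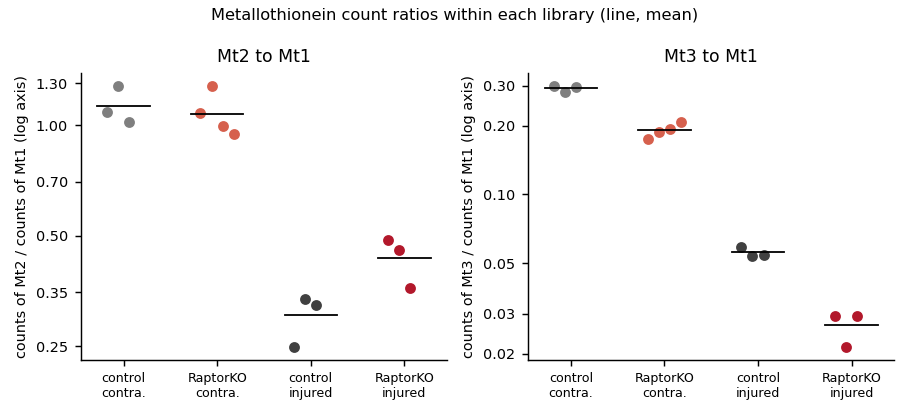
Ratio of the counts of Mt2 to Mt1 (left) and of Mt3 to Mt1 (right) in each of the 13 libraries (points, log axes) by group, with the group mean as a line. Both ratios are lower in every injured than in every contralateral library, and the Mt3 ratio is lower in every RaptorKO than in every control library of the same side.

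Mtf1 (chromosome 4 from 124802104 to 124849800, plus strand), which encodes MTF-1, had group means within 27.0 to 34.3 CPM. Its levels were 34.3, 33.1, and 35.4 CPM in control contralateral, 29.9, 31.7, 31.6, and 34.9 CPM in RaptorKO contralateral, 34.9, 28.3, and 27.95 CPM in control injured, and 26.2, 27.8, and 27.0 CPM in RaptorKO injured nerves. It was not called after crush in controls (log2 fold change -0.22 ± 0.13, edgeR's quasi-likelihood test, adjusted p = 0.15) or RaptorKOs (-0.27 ± 0.12, adjusted p = 0.065, and 0.039 when all libraries shared 1 fit), nor between injured nerves (-0.15 ± 0.14, adjusted p = 0.61). Its exons overlap those of the opposite-strand gene 1110065P20Rik over 721 bases, which held 64 to 170 counts.

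Counted together, 7 of 8 tested members were called after crush in controls, 2 higher (Slc39a14 and Slc39a6) and 5 lower (Slc39a10, Slc30a1, Mt1, Mt2, and Mt3). Of all 12430 genes tested there 65.3% were called, 32.4% higher and 32.9% lower, and the count of members is to be read against that share. In RaptorKOs 6 of 8 were called, the same genes other than Slc30a1, 2 higher and 4 lower, against 58.9% of 12515 genes, 30.5% higher and 28.5% lower. The median log2 fold change of the 9 members fitted was -0.64 in controls and -0.27 in RaptorKOs, and that of all genes was -0.0015 and 0.03. The injury comparisons share libraries with the genotype comparisons. When libraries were scaled by their totals only, the median of all genes was higher by 0.20 in controls and by 0.16 in RaptorKOs, and the higher share of called genes was 61.7% in place of 49.7% in controls and 62.4% in place of 51.7% in RaptorKOs, but each member kept its direction after crush.

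Among injured nerves 3 of 9 members were called between the genotypes, Slc39a8 and Slc39a14 higher and Mt3 lower, against 8.54% of 12040 genes, 4.09% higher and 4.44% lower. That count includes Slc39a8, whose rise in contralateral nerves, possibly of the same mice, chose the members. The calls of Slc39a14 and Mt3 were lost in 7 and 6 of 14 alternatives. The count was 4 with DESeq2 and between 1 and 4 when single libraries were left out. In contralateral nerves 1 of the 9 members in the fit was called, Slc39a8, against 10.2% of 11878 genes, and since that comparison chose the members nothing is read from it. The contralateral log2 differences of the others lay between -0.45 ± 0.19 for Mt3 and 0.23 ± 0.12 for Slc39a6. In the test of whether genotype effects differed between injured and contralateral nerves, 0 of 8 members were called by edgeR's quasi-likelihood test and 0 by DESeq2, against 2.47% of 12851 genes, and 4 had an unadjusted p under 0.05 (Slc30a1, Slc39a10, Slc39a14, and Slc39a6), as had 1827 of all genes, or 14.2%.

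The other transporters of these families were examined as a list. Of 10 other ZIP genes 6 were tested, and of 8 other ZnT genes and Mt4 together 5 were tested. After crush in controls Slc39a1 (log2 fold change 0.81, edgeR's quasi-likelihood test, adjusted p = 3.8e-06) and Slc39a7 (0.37, adjusted p = 0.0035) rose, and Slc39a13 (-0.92, adjusted p = 1.6e-06) and Slc39a3 (-0.80, adjusted p = 0.00082) fell. Slc39a1 encodes the plasma membrane importer ZIP1, Slc39a7 the endoplasmic reticulum transporter ZIP7, and Slc39a13 the vesicle and Golgi transporter ZIP13. These 4 of 6 stand beside 65.3% of all genes called. In RaptorKOs 1 of the 6 rose and 2 fell, beside 58.9% of all genes, with log2 fold changes of 0.75 for Slc39a1, -0.63 for Slc39a3, and -0.61 for Slc39a13.

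Of the ZnT genes, Slc30a4, Slc30a5, and Slc30a7 rose after crush and Slc30a9 fell in both genotypes. These 3 of 5 higher and 1 lower stand beside 32.4% and 32.9% of all genes in controls and 30.5% and 28.5% in RaptorKOs. Slc30a7 and Slc30a5, which encode transporters that load zinc into the secretory pathway, rose by 0.79 and 0.63 on the log2 scale in controls and by 0.59 and 0.56 in RaptorKOs. Slc30a9 fell by 0.81 in controls and by 0.66 in RaptorKOs. The median over the list was 0.44 in controls and 0.43 in RaptorKOs, and that of the ZIP list -0.06 and 0.0058. Between the genotypes in injured nerves, 0 of 6 ZIP and 0 of 5 ZnT genes were called by edgeR's quasi-likelihood test or by DESeq2, and at an unadjusted p under 0.05 there were 0 and 1 (Slc30a4). Of all genes there, edgeR's quasi-likelihood test called 8.54% and gave 21.5% an unadjusted p under 0.05. In contralateral nerves 1 of 6 ZIP and 1 of 5 ZnT genes were called, beside 10.2% of all genes. Slc39a13 (-0.39 ± 0.08, adjusted p = 0.015 by edgeR's quasi-likelihood test) and Slc30a9 (-0.36 ± 0.09, adjusted p = 0.036) were lower in RaptorKOs there. The first call was lost without control contralateral library 1 or 2, the second without any single control contralateral library, without RaptorKO contralateral library 1 or 3, and under scaling by totals. Of the genes below the filter, Slc39a5, Slc30a3, and Slc30a8 held 0 counts in all 13 libraries and Mt4 at most 5.

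**Figure D4:**
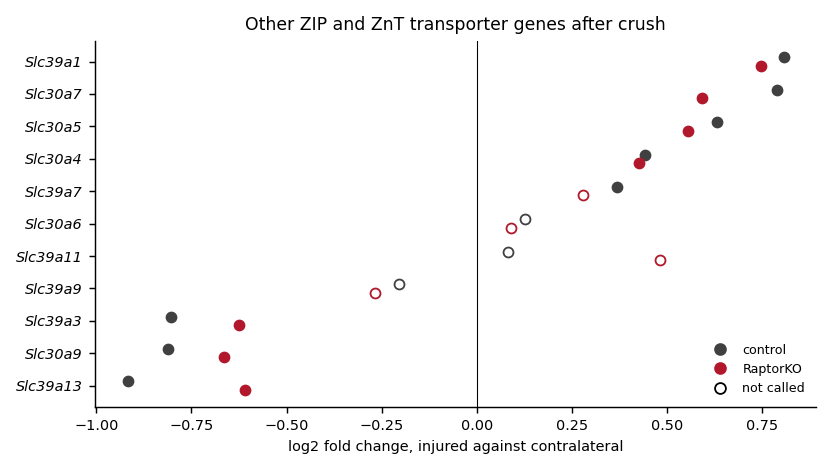
Log2 fold change of injured against contralateral nerves (horizontal axis) for the 11 tested ZIP and ZnT genes that are not members, in controls (dark) and RaptorKOs (red), with open circles for genes not called. Slc39a1 and Slc30a7 lie furthest to the right at 0.81 and 0.79 in controls, and Slc39a13 furthest to the left at -0.92.

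Glucocorticoid-responsive genes were listed because Mt1 and Mt2 are known to respond to these hormones. All 9 were lower after crush in controls and in RaptorKOs (median log2 fold change -1.77 and -1.25), beside 32.9% and 28.5% of all genes tested. Among them were Pdk4, which encodes an inhibitor of pyruvate oxidation (-3.21 ± 0.14 and -3.04 ± 0.18), the transcription factor gene Zbtb16 (-3.12 ± 0.29 and -1.87 ± 0.31), and Tsc22d3, which encodes the mediator GILZ (-2.85 ± 0.12 and -2.13 ± 0.13, the largest adjusted p of these being 0.00045 by edgeR's quasi-likelihood test). Among injured nerves 3 of 9 were higher in RaptorKOs, beside 4.09% of all genes, and these were Per1 (117 ± 11.9 against 74.8 ± 7.47 CPM, adjusted p = 0.0049 by the quasi-likelihood test of edgeR), Fkbp5 (adjusted p = 0.032), and Sgk1 (adjusted p = 0.037), with log2 fold changes of 0.66 ± 0.11, 0.55 ± 0.14, and 0.49 ± 0.13. The Fkbp5 call was lost without control injured library 2 or 3 or RaptorKO injured library 1 or 2, and the Sgk1 call without any control injured library or RaptorKO injured library 1 or 3. Pdk4 went the other way among injured nerves, at 6.16 ± 1.35 CPM (SD) in RaptorKOs and 10.4 ± 1.84 CPM in controls. It had an unadjusted p under 0.05 by edgeR's quasi-likelihood test but was not called, and 0 of 9 were called lower. In contralateral nerves 1 of 9 was called, beside 10.2% of all genes. That gene was Pdk4, which was lower in RaptorKOs (-0.87 ± 0.11, adjusted p = 0.00068 by edgeR's quasi-likelihood test).

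NF-kB target genes were listed because Slc39a8 is a known target of this pathway. Of 8 tested among injured nerves 2 were higher in RaptorKOs and 0 lower, beside 4.09% and 4.44% of all genes. They were Nfkbia (log2 fold change 0.70 ± 0.14, edgeR's quasi-likelihood test, adjusted p = 0.013), the inhibitor of the pathway, and Nfkb2 (0.45 ± 0.13, adjusted p = 0.049), a subunit. The Nfkb2 call was lost without any control injured library and without RaptorKO injured library 1 or 2. In contralateral nerves 1 of 7 was higher, beside 10.2% of all genes called in either direction. That gene was Nfkbia (0.39 ± 0.10, adjusted p = 0.031), a call that was lost without control contralateral library 1 or 2 or RaptorKO contralateral library 1 or 2. After crush 3 of 8 rose and 2 fell in controls, beside 32.4% and 32.9% of all genes. In RaptorKOs 4 of 8 rose and 2 fell, beside 30.5% and 28.5%. Ccl2, which rose in both genotypes, met the count filter only through the injured libraries. The log2 fold change of Nfkbia was -1.24 ± 0.12 in controls and -0.91 ± 0.12 in RaptorKOs.

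Over the 13 libraries, the genes with the levels most like those of Slc39a8 among 12851 genes were Rpl4 (Pearson r = 0.97 of log2 CPM), Rpl21 (0.96), Rpl3 (0.93), Cd34 (0.93), and Rpl30 (0.93). All except Cd34, which encodes a cell surface sialomucin, encode proteins of the large ribosomal subunit, and genes of that kind have pseudogenes with which reads may be shared. Rpl4 was at 647, 1313, 803, and 1370 CPM on average in control contralateral, RaptorKO contralateral, control injured, and RaptorKO injured nerves. For Mt2 they were Ip6k2, Gpd1l, Kank1, Mat2a, and Spint1, with r of 0.99 for each. These coefficients describe the same 13 libraries, whose groups differ in both genotype and injury, and carry no test.

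Markers of the cell types of the nerve moved with the same groups. In bulk nerves, fewer cells of a type and less RNA per cell cannot be told apart. All 8 Schwann cell and myelin markers were detected in each group, with summed levels of 84990 to 93740 CPM in control contralateral, 72160 to 89460 in RaptorKO contralateral, 3635 to 4502 in control injured, and 2669 to 3263 in RaptorKO injured nerves. After crush 8 of 8 were lower in controls and 7 of 8 in RaptorKOs, beside 32.9% and 28.5% of all genes. The 8 macrophage markers summed to 165 to 184, 280 to 346, 2707 to 3380, and 1810 to 3715 CPM in the same order. After crush 8 of 8 were higher in controls and 7 of 8 in RaptorKOs, beside 32.4% and 30.5% of all genes. Aif1 and Itgam were at 0.64 ± 0.20 and 2.00 ± 0.69 CPM (SD) in control contralateral nerves. In controls both met the count filter only through the injured libraries. Among contralateral nerves of both genotypes 7 of the 8 macrophage markers met the filter. The remaining marker therefore met it in the RaptorKO injury comparison only with the injured libraries. The part of these marker differences in the member values was not tested.

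Among injured nerves endothelial markers were higher in RaptorKOs for 6 of 6 genes (229 to 338 CPM summed in controls, 410 to 646 in RaptorKOs), pericyte and smooth muscle markers for 4 of 5 (403 to 497 against 752 to 1062), mast cell markers for 4 of 5 (8.60 to 51.9 against 102 to 194), fibroblast markers for 2 of 5 (4548 to 7062 against 6322 to 10570), perineurial markers for 1 of 4 with 3 tested, and erythrocyte markers for 2 of 2 tested. The erythrocyte genes Hba-a1 and Hbb-bs were low in control injured nerves, at 2.19 ± 1.19 and 4.61 ± 5.49 CPM (SD). In control injured nerves 1 of 5 mast cell and 1 of 4 erythrocyte markers reached 10 counts in every library, against 5 and 3 in RaptorKO injured nerves. Genes of these lists could thus meet the count filter mainly through the RaptorKO libraries, and their counts of calls are a description only. In control contralateral nerves 3 of 5 mast cell markers reached 10 counts in every library, against 5 in RaptorKOs. Of all genes tested between injured nerves, 4.09% were higher and 4.44% lower. There DESeq2 called 6 of the endothelial, 4 of the pericyte and smooth muscle, and 1 of the mast cell markers (Kit). It called 1 each of the fibroblast, perineurial, and erythrocyte markers. Macrophage markers were called in 0 of 8 by edgeR's quasi-likelihood test or by DESeq2, with 0 at an unadjusted p under 0.05, and 2 of 8 Schwann cell and myelin markers were lower (3 called with DESeq2). In contralateral nerves 0 of 6 endothelial, 0 of 5 pericyte and smooth muscle, and 0 of 4 perineurial markers were called by edgeR's quasi-likelihood test or by DESeq2, with 0, 2, and 0 at an unadjusted p under 0.05, while 5 of 7 macrophage markers, 3 of 5 fibroblast markers, 2 of 5 mast cell markers, and 1 of 3 erythrocyte markers were higher and 2 of 8 Schwann cell and myelin markers lower. DESeq2 called 5, 4, 0, 1, and 2 genes of these lists. Of all genes tested between contralateral nerves, edgeR's quasi-likelihood test called 10.2% in either direction. An unadjusted p under 0.05 was found for 21.5% of all genes between injured nerves and 24.9% between contralateral nerves. Skeletal muscle markers summed to at most 1.48 CPM in any library, those of T cells to 23.3 CPM and of neutrophils to 48.8 CPM. Adipocyte markers ranged from 0 to 258 CPM.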

How the data were processed

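The deposited table holds expected counts per gene and library. The authors trimmed the reads with Trimmomatic and estimated these counts with RSEM 1.2.22 on GRCm38. They are not normalized for depth. Of the nonzero values, 24.9% to 28.0% per library were not whole, and all were rounded here. Whether counting used strand is not stated. Groups came from the sample labels.

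The analysis used R 4.3.3 and edgeR 4.0.16 (glmQLFit, glmQLFTest, TMM factors). Genes with at least 50 counts in at least 2 libraries of a comparison were tested, with Benjamini-Hochberg adjustment over all of them. Calls needed an adjusted p under 0.05 and a fold change over 1.2. Log2 CPM used a prior count of 2. DESeq2 1.42.0, edgeR's exact test, RLE and total scaling, no filter, 1 fit of all libraries, a replicate block, a stricter p, and leaving out each library were alternatives. The ratios and the omission of both control libraries numbered 3 were added after the data were seen. The code was tested on simulated data.

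The members and gene lists were chosen with earlier results of these data known, so no value of a list is independent support. All members were named, and at most 3 called genes per list and comparison, those with the largest log2 fold change, besides Slc39a7 and Slc30a4, which were named after their values were seen. Of 40787 gene IDs, 40634 matched GENCODE M21. Promoters are from RefSeq. Figures used Python 3.11.15 with matplotlib 3.10.9.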

Additional observations from a re-analysis of the deposited data

Results flagged for a closer look

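Tsc22d3, a glucocorticoid-responsive gene listed beside the metallothioneins, had genotype effects that differed between injured and contralateral nerves, by 0.696 ± 0.17 (SE) on the log2 scale (edgeR's quasi-likelihood test of the interaction, adjusted p = 0.041). It was at 809 ± 51.6 CPM in control contralateral and 650 ± 64.2 CPM in RaptorKO contralateral nerves, and at 116 ± 9.30 CPM in control injured and 151 ± 23.0 CPM in RaptorKO injured nerves. The call was lost without any single control contralateral library, without RaptorKO contralateral library 1, 2, or 3, without control injured library 1 or 2, and without RaptorKO injured library 1 or 2 (log2 differences of 0.59 to 0.73, adjusted p of 0.060 to 0.11). It was also lost without both control libraries numbered 3 (0.72, adjusted p = 0.094).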

How the results depend on the processing

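Of 16 called member results, 13 kept their call and direction under every alternative, and the exceptions were Slc39a14 and Mt3 between injured nerves and Slc39a10 after crush in RaptorKOs. Over all genes, the injured comparison called 1028 genes, 1556 without a count filter, and 351 at an adjusted p below 0.01, where 1 member was called. With single libraries left out, it called 447 to 999 genes and 1 to 4 members. The contralateral comparison called 1208 genes, 477 at the stricter p, and 524 to 1418 with single libraries left out, with 1 to 2 members in the fit. The interaction called 318 genes, 598 with DESeq2, 84 at the stricter p, 113 without both control libraries numbered 3, and 132 to 284 with single libraries left out.

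Values near 0 turned their sign. Between injured nerves, leaving out single libraries gave -0.0096 to 0.19 for Mt1 and -0.0039 to 0.12 for Slc39a10. For Slc30a1 in RaptorKOs, DESeq2 gave -0.0098, RLE scaling -0.011, and single omissions -0.0835 to 0.125. In the interaction, single omissions gave -0.201 to 0.0899 for Mt1 and -0.135 to 0.0264 for Mtf1, and Mt1 was 0.0118 without both control libraries numbered 3. The cause was not tested.

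Injured and contralateral libraries of equal genotype and number may come from 1 mouse. Their deviations from group means had Pearson r of -0.02 to 0.30 over 12851 genes, above 0.1 in 4 of 6 pairs. Pairs of different genotypes had r of -0.05 to 0.30. These correlations alone neither show nor exclude a shared mouse. The authors describe the contralateral nerves as corresponding to the injured ones. Only the 2 control libraries numbered 3, injured and contralateral, had high Xist counts (14462 and 15017). The main tests still treated the libraries as independent. With the replicate block, the injury comparisons called the same 7 and 6 members as without it. In the genotype comparisons the block joined libraries of equal number from different mice, so its effect there does not bear on shared animals. There the injured comparison called 1 member (Slc39a8) and 796 genes, and the contralateral fit 3 members and 1811 genes. The interaction called 0 members with the block, and Mt1 was 0.0475 there. Slc39a14 and Mt3 had adjusted p of 0.068 and 0.054 between injured nerves with the block, and among other named genes it ended the calls of Sgk1 and Nfkb2 between injured nerves and of Slc30a9 between contralateral nerves (adjusted p of 0.079, 0.064, and 0.051). Mt3 held 56 to 62 counts in RaptorKO injured libraries, which limits its precision.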

Other observations

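Of 21 tested genes for iron, copper, and manganese, 9 rose and 6 fell after crush in controls, beside 32.4% and 32.9% of all genes tested. In RaptorKOs 9 of 22 rose and 5 fell, beside 30.5% and 28.5%. Slc11a1, which encodes the phagosomal metal transporter NRAMP1, rose by 3.30 ± 0.21 (SE) on the log2 scale in controls, where it met the count filter only through the injured libraries, and by 2.62 ± 0.21 in RaptorKOs. The endosomal ferrireductase gene Steap3 rose by 2.76 ± 0.13 and 2.26 ± 0.15. The largest adjusted p of these was 2.1e-06 by edgeR's quasi-likelihood test. Steap4, a metalloreductase gene, was the 1 called gene of 21 between injured nerves (8.54% of all genes were called), at 152 ± 40.1 CPM in RaptorKOs and 72.6 ± 24.7 CPM in controls (log2 fold change 1.09 ± 0.22, adjusted p = 0.013 by edgeR's quasi-likelihood test). That call was lost without control injured library 2 or 3. In contralateral nerves 2 of 21 were higher and 3 lower in RaptorKOs (10.2% of all genes were called), among them the transferrin receptor gene Tfrc (-0.88 ± 0.14, adjusted p = 0.0033), the ferroxidase gene Cp (0.74 ± 0.12, adjusted p = 0.0036), and the heme oxygenase gene Hmox1 (-0.67 ± 0.15, adjusted p = 0.020, lost without control contralateral library 1 or 2).

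Of the IL-6 and STAT3 response list, 7 of 9 tested genes rose and 2 fell after crush in controls, beside 32.4% and 32.9% of all genes. In RaptorKOs 8 of 10 rose and 1 fell, beside 30.5% and 28.5%. Some of the genes that rose met the count filter only through the injured libraries, Bcl3 among them in both genotypes. Il4ra rose by 3.44 ± 0.15 and 3.19 ± 0.17 on the log2 scale. Lcn2 fell by 3.38 ± 0.36 in controls (adjusted p = 5.5e-06 by edgeR's quasi-likelihood test), from 11.2 ± 1.85 to 1.10 ± 0.58 CPM (SD). It met the count filter there only through the contralateral libraries. Between injured nerves 0 of 9 were called by edgeR's quasi-likelihood test, beside 8.54% of all genes. An unadjusted p under 0.05 was found for 3 of 9 (Cebpd, Il6ra, and Osmr), beside 21.5% of all genes, and DESeq2 called 1 (Cebpd). In contralateral nerves 1 of 8 was lower in RaptorKOs, Il6ra (-0.52 ± 0.15, adjusted p = 0.049), beside 10.2% of all genes called in either direction. That call was lost without any single control contralateral library or without RaptorKO contralateral library 1 or 3. Of the oxidative stress list, 3 of 7 rose and 3 fell after crush in each genotype, against the same shares of all genes, with Srxn1 at 2.73 ± 0.10 and 2.41 ± 0.11. Nqo1 fell, at -0.76 ± 0.22 in controls and -0.76 ± 0.20 in RaptorKOs (adjusted p = 0.0089 and 0.0066 by edgeR's quasi-likelihood test). Its call in controls was lost without control contralateral library 1 (adjusted p = 0.051). Between the genotypes 0 of 7 were called on either side by edgeR's quasi-likelihood test or DESeq2, beside 8.54% of all genes among injured and 10.2% among contralateral nerves. At an unadjusted p under 0.05 there were 3 among injured nerves (Gclc, Srxn1, and Txnrd1) and 0 among contralateral nerves. The shares of all genes at that p were 21.5% and 24.9%.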
